A study of Mus musculus with 20 samples.

Results

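To ask where cohesin stays on CTCF sites that keep some CTCF after CTCF degradation, 2070 RAD21 peaks of mouse embryonic stem cells (mESCs) were examined. They are the RAD21 peaks of auxin-treated cells (ΔCTCF) that overlapped, by at least 1 bp, both a RAD21 peak of untreated cells (WT) and a CTCF peak of ΔCTCF, and they are called residual-CTCF RAD21 peaks below. The RAD21 list of ΔCTCF held 17912 peaks, of which 7893 overlapped a RAD21 peak of WT and so were retained. The residual-CTCF peaks made up 11.6% of that list and 26.2% of the retained peaks. They were selected on measured values, namely the RAD21 calls of WT and ΔCTCF and the CTCF call of ΔCTCF, so their presence and strength in these 3 lists is given as a description.

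The series measured CTCF, MAZ and RAD21 by ChIP-seq, which sequences the DNA held by an antibody against a protein. It has 20 samples, of which 12 have a peak list (3 antibodies by 4 conditions), with 136043 peaks in all, and the other 8 samples were not analysed here. There were no replicate lists. All values below therefore describe single libraries, their 95% Wilson intervals cover counting error over peaks only, and no p-value was computed.

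All cells were E14 mESCs, grown in LIF with 2 inhibitors, in which CTCF carries an auxin-inducible degron (CTCF-AID), a tag that has the protein degraded when auxin is added. The WT cells carry this tag and received no auxin, and ΔCTCF cells received auxin for 2 days. ΔMAZ cells are a Maz knockout made in the CTCF-AID line, taken from clone B2 and left untreated, and ΔCTCF/ΔMAZ cells are the same knockout after auxin. A single knockout clone stands for ΔMAZ, so the knockout and the clone cannot be told apart. As a check of the labels, auxin left 2381 CTCF peaks of 26394 by count, or 2570 of 26053 in the knockout, and MAZ peaks numbered 33 in either knockout condition against 6265 (WT) and 6759 (ΔCTCF). Values for the 4 conditions are given in the order WT, ΔCTCF, ΔMAZ, ΔCTCF/ΔMAZ, in which RAD21 had 20371, 17912, 20872 and 6400 peaks.

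CTCF is a zinc finger protein that binds a long, oriented DNA motif and stops cohesin as it extrudes chromatin loops, and RAD21 is the subunit that closes the cohesin ring. The side of CTCF that faces cohesin lies on 1 side of its motif, so cohesin gathers there. MAZ is a zinc finger protein that binds G-rich promoter sequence and was studied as a further stop for cohesin.

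The sequences under the strongest residual-CTCF peaks are shown first because many of these peaks held a CTCF motif, which their selection did not use. A CTCF matrix of 16 positions was learned from the CTCF summits of ΔMAZ, a list that took no part in the selection, and its most frequent bases read GCCACCAGGGGGCGCT. Each line gives the best match within 50 bp of the RAD21 summit in capitals with 12 bases on each side, read 5′ to 3′ on the strand of the motif, from GRCm38 (mm10). The first set holds 4 of the 5 peaks of highest fold enrichment in the RAD21 list of ΔCTCF, named by the nearest protein-coding transcription start site (TSS).
Aqp7 (chr4:41050837-41050876, plus strand): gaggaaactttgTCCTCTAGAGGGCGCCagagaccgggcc
Anxa4 (chr6:86806603-86806642, minus strand): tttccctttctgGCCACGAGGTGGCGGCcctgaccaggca
Cpn2 (chr16:30236522-30236561, minus strand): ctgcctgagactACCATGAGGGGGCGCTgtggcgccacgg
9330182O14Rik (chr15:40131270-40131309, minus strand): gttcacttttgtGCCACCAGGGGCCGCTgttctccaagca

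The second set belongs to 2 of the 5 peaks of highest fold enrichment in the CTCF list of ΔCTCF. Of the others, the peaks near Gpr19 and at Pcdhgb7 held no match above the score limit.
Keap1 (chr9:21220582-21220621, minus strand): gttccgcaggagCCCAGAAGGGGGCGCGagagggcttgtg
Eif1 (chr11:100300492-100300531, minus strand): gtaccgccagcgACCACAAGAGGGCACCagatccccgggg

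The third set shows the strongest residual-CTCF peaks that had neither a RAD21 nor a CTCF peak in ΔCTCF/ΔMAZ, for contrast. Of 5 such peaks, those near Tmem29 and Gabrr1 held no match within 50 bp of the summit.
Nkx2-2 (chr2:147256917-147256956, minus strand): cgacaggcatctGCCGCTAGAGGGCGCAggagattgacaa
Mapk1ip1 (chr7:138828002-138828041, minus strand): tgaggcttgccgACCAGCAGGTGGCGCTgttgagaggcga
Rxrg (chr1:167637201-167637240, minus strand): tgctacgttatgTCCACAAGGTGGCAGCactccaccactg

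The matched bases equalled the most frequent bases of the matrix at 11 to 15 of 16 positions in the first set, at 11 and 12 in the second, and at 10 to 13 in the third. The 9330182O14Rik site had the most such bases, 15 of 16, and the Rxrg site the fewest, 10.

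Most CTCF peaks left after auxin lay in residual-CTCF peaks. The CTCF list of ΔCTCF had 2381 peaks, and 87.0% of them (95% interval 85.6 to 88.3) lay in a residual-CTCF peak, while 89.7% (88.4 to 90.9) overlapped any RAD21 peak of ΔCTCF. Of the RAD21 peaks of WT, 10.2% (9.78 to 10.6) overlapped a residual-CTCF peak. At the edge of the selection, the smallest overlap with a CTCF peak was 72 bp, at chr9:121385257-121385467, and the median overlap was 222 bp. The nearest retained peak left out lay 64 bp from a CTCF peak of ΔCTCF, at chr11:50130615-50131071, and 23 retained peaks lay within 500 bp of one.

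These were strong sites in untreated cells. Of the 2070 peaks, 2069 overlapped a CTCF peak of WT, against 41.1% of all RAD21 peaks of ΔCTCF. Ranked by fold enrichment, the strongest overlapping CTCF peak of WT had a median percentile of 89.5 (quartiles 78.8 and 96.0), and 47.9% of the peaks were in the top 10% of that list. In the RAD21 list of WT the median percentile was 84.1 (66.7 to 93.7), with 36.0% in the top 10%. The most similar class, the 4978 retained RAD21 peaks with a CTCF peak in WT but none in ΔCTCF, had medians of 74.2 in CTCF and 75.5 in RAD21. They are called CTCF-lost retained peaks below.

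The rise with rank was steep at the top of each list. Among CTCF peaks of WT that overlapped RAD21, 40.5% (38.6 to 42.5) of those in the strongest decile of the list held a residual-CTCF peak, compared with 12.6% (11.3 to 14) in decile 8 and 1.80% (1.28 to 2.53) in decile 5, counted from the weakest. For RAD21 peaks of WT the shares in the same deciles were 36.6%, 14.6% and 5.19%. In CTCF the intervals of neighbouring deciles did not overlap from decile 6 upward, while the lowest 4 deciles all lay under 1%. Even of the strongest decile, 993 of 2452 peaks held a residual-CTCF peak and the rest did not.

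**Figure D1:**
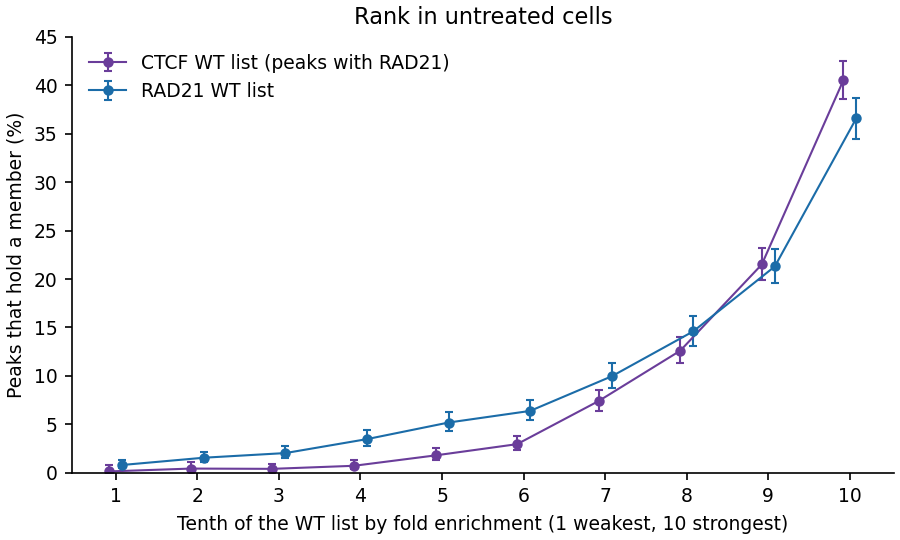
Share of peaks of the untreated lists that hold a residual-CTCF RAD21 peak (y axis, percent, with 95% Wilson intervals) by decile of the list in fold enrichment (x axis, 1 weakest to 10 strongest). Both curves climb to the strongest decile, at 40.5% for CTCF peaks with RAD21 (purple) and 36.6% for RAD21 peaks (blue).

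Strength within the class was shared between antibodies only in part. Across residual-CTCF peaks, Spearman's rho of fold enrichment between WT and ΔCTCF was 0.70 for RAD21 and 0.38 for CTCF. Between CTCF and RAD21 it was 0.17 in WT and 0.45 in ΔCTCF. These correlations are across peaks of single libraries that share cells and base composition, and are given as a description.

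Even here, the enrichment of both proteins over background was lower after auxin. The pileup of fragments at each summit and its local background were solved from the deposited fold enrichment and p-value, and their ratio carries no pseudocount, unlike the fold enrichment. For CTCF the median ratio of pileup to background was 70.8, 27.8 and 82.2 in the first 3 conditions and 22.8 at the 1422 peaks called in ΔCTCF/ΔMAZ. For RAD21 it was 33.5, 14.9 and 34.0, and 17.1 at the 1733 peaks called in ΔCTCF/ΔMAZ. Peak by peak, the ΔCTCF value was a median 0.406 of the WT value for CTCF (quartiles 0.315 and 0.544) and 0.465 for RAD21 (0.352 and 0.618). The RAD21 value was lower after auxin at all but a few percent of the sites. In CTCF-lost retained peaks the RAD21 ratio was 0.309 (0.218 to 0.433). These ratios are scaled within each library and not by the spike-in, so a change common to the whole genome cannot be seen in them. They also cannot tell the occupancy of a site from the signal to noise of a library.

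**Figure D2:**
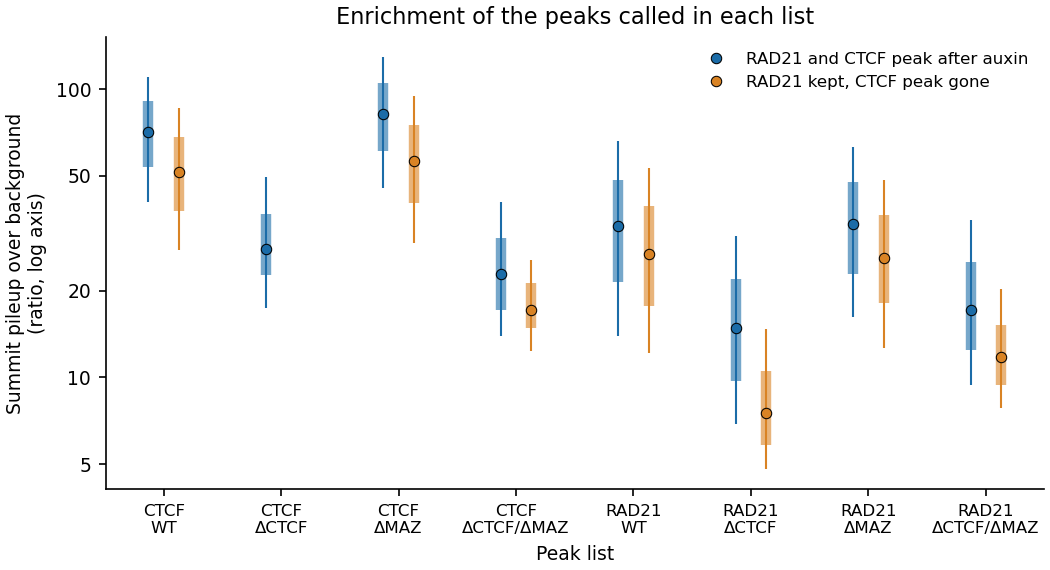
Ratio of summit pileup to local background (y axis, log scale) in the 4 CTCF and 4 RAD21 lists (x axis), over the peaks called in each list, with the median as a point, the quartiles as a thick bar and the 10th and 90th percentiles as a thin line. For RAD21, residual-CTCF peaks (blue) had a median of 33.5 in WT and 14.9 in ΔCTCF, and CTCF-lost retained peaks (orange) 26.9 and 7.51.

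At a small set of sites RAD21 enrichment was higher after auxin. The ratio was higher in ΔCTCF than in WT at 52 of 4977 CTCF-lost retained peaks (1.04%). It was so at 78 of 2068 residual-CTCF peaks with a solved pileup (3.77%). The highest quotient of the ratios, 2.32, was 50 bp upstream of the TSS of Tamm41, which encodes a mitochondrial enzyme of cardiolipin synthesis, where the RAD21 pileup was 16 fragments in WT and 81 in ΔCTCF. At chr15:97963721-97964361, 116 bp upstream of the TSS of Tmem106c, it was 29 and 135, a quotient of 2.00. The ΔCTCF library had 2.18 times the depth of WT by an index from the local background, which the quotients take into account. Of these 78 peaks, 28 (35.9%) lay within 1 kb of a TSS, compared with 10.8% of the other 1990, and their median percentile in the RAD21 list of WT was 37.3 against 84.7. They were set apart by their values, so these figures are a description.

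In untreated Maz knockout cells, residual-CTCF peaks were almost all still called. RAD21 was called at 2062 of 2070 (99.6%, 99.2 to 99.8), where the share over all RAD21 peaks of ΔCTCF was 47.4%, and CTCF at 2069, where that share was 41.1%. CTCF-lost retained peaks had 99.3% for RAD21 and 99.3% (99.0 to 99.5) for CTCF. With every list cut to the length of the shortest of its antibody, CTCF was called in ΔMAZ at 51.4% of residual-CTCF peaks and RAD21 at 95.3%. The median ratio of enrichment in ΔMAZ to that in WT was 1.01 for RAD21 (0.858 to 1.21) and 1.15 for CTCF (0.973 to 1.35). The 8 peaks without RAD21 in ΔMAZ were weak in WT, with RAD21 fold enrichments from 4.70, in an exon of Ctcf, to 8.69, at the promoter of Ndufaf4. The only peak with no CTCF in WT also had none in ΔMAZ or ΔCTCF/ΔMAZ, and lay in intergenic DNA at chr1:78580662-78581057.

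After auxin in the knockout, most residual-CTCF peaks were called again. RAD21 was called in ΔCTCF/ΔMAZ at 1733 of 2070 (83.7%, 82.1 to 85.2), against 29.5% of all RAD21 peaks of ΔCTCF, and CTCF at 1422 (68.7%, 66.7 to 70.7), against 13.1%. In CTCF-lost retained peaks these shares were 43.6% (42.3 to 45) and 17.2% (16.2 to 18.3). In the 845 retained peaks with no CTCF peak in WT or ΔCTCF, they were 34.8% (31.7 to 38.1) and 0.118% (0.0209 to 0.667). The order of the 3 classes was thus the same for both antibodies, with intervals that did not overlap. Of the CTCF-lost retained peaks, 857 thus had a CTCF call in ΔCTCF/ΔMAZ that they lacked in ΔCTCF. By the index the CTCF library of ΔCTCF had 0.551 of the depth of that of ΔCTCF/ΔMAZ, and the part of depth in those calls was not tested.

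**Figure D3:**
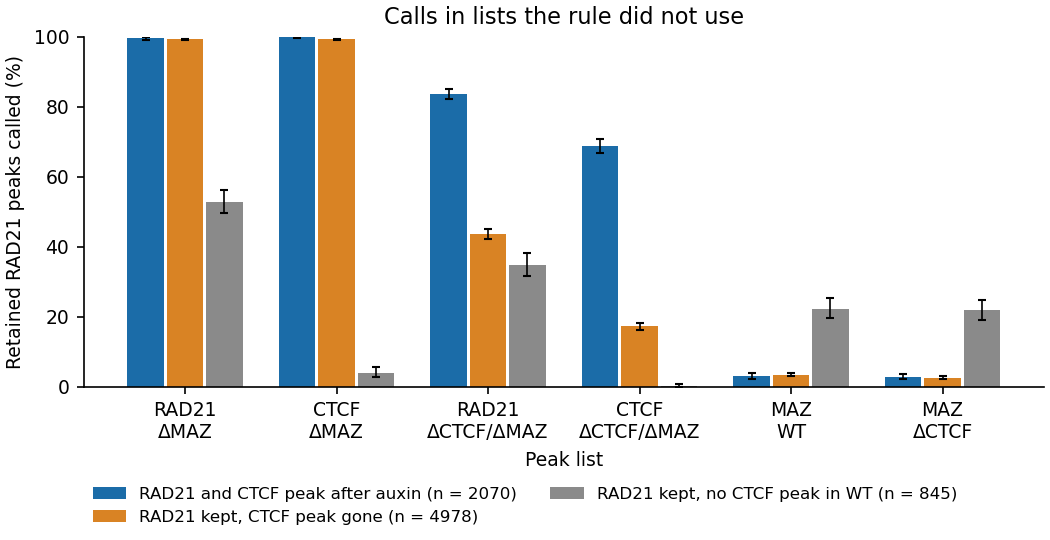
Share of retained RAD21 peaks (y axis, percent, with 95% Wilson intervals) called in 6 lists that did not choose them (x axis), for the 2070 residual-CTCF peaks (blue), the 4978 CTCF-lost retained peaks (orange) and the 845 without a CTCF peak in WT (grey). In ΔCTCF/ΔMAZ the blue bars stand at 83.7% for RAD21 and 68.7% for CTCF, above both other classes.

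In ΔCTCF/ΔMAZ most residual-CTCF peaks had both calls. The separate shares of 83.7% for RAD21 and 68.7% for CTCF already make a large joint share. Whether the calls depend on each other was not tested. Both were called at 1307 residual-CTCF peaks (63.1%), RAD21 alone at 426 (20.6%), CTCF alone at 115 (5.56%) and neither at 222 (10.7%). The share with both was 11% over all RAD21 peaks of ΔCTCF and 12.8% in CTCF-lost retained peaks. Peaks with both had a median percentile of 94.2 in the RAD21 list of ΔCTCF and 66.6 in its CTCF list, and peaks with neither had 73.1 and 29.2. The peaks with CTCF alone had a median percentile of 59.6 in the RAD21 list of WT, below the class median of 84.1, and of 90.1 in its CTCF list. Counted over the 8 CTCF and RAD21 lists, 1305 residual-CTCF peaks (63.0%) were called in all of them.

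These shares rose with strength in ΔCTCF. From the weakest to the strongest quintile of residual-CTCF peaks by RAD21 fold enrichment, 47.6%, 78.0%, 94.2%, 99.0% and 99.8% had RAD21 in ΔCTCF/ΔMAZ. For CTCF, over quintiles of CTCF fold enrichment, the shares were 47.8%, 53.4%, 65.0%, 82.1% and 95.2%. The RAD21 library of ΔCTCF had 2.34 times the depth of that of ΔCTCF/ΔMAZ by the index, and the median RAD21 pileup in ΔCTCF was 69 fragments where both proteins were called again and 30 where neither was. The part of depth in the lost calls was not tested. Where RAD21 was called in both, its enrichment in ΔCTCF/ΔMAZ was a median 1.07 of that in ΔCTCF (quartiles 0.859 and 1.31).

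Grouped by RAD21 strength in ΔCTCF, residual-CTCF peaks were called more often than CTCF-lost retained peaks in the full lists. In lists of equal length the odds ratio was computed for RAD21 only, and there the difference was not beyond counting error. Over 5 equal groups of the whole RAD21 list of ΔCTCF by fold enrichment, the strongest group had RAD21 in ΔCTCF/ΔMAZ at 93.3% (92.0 to 94.4) of 1617 residual-CTCF peaks and at 78.8% (76.8 to 80.7) of 1662 CTCF-lost peaks. The next group had it at 56.6% (50.9 to 62.1) and 35.6% (33.2 to 38.1). Pooled over these 5 groups, the Mantel-Haenszel odds ratio was 2.98 (2.56 to 3.47) for RAD21, and 6.55 (5.77 to 7.44) for CTCF. The classes were defined by having or lacking a CTCF call in ΔCTCF, and these groups do not match CTCF strength. The odds ratio for CTCF is therefore a description. For RAD21 it went to 1.06 (0.755 to 1.49) when every list was cut to the strongest peaks of the shortest list of its antibody, where 91.8% of 1458 residual-CTCF peaks and 78.3% of 423 CTCF-lost peaks were called before grouping by strength. Grouped by strength in WT instead, the odds ratio for RAD21 was 6.52 by RAD21 and 5.37 by CTCF, and that for CTCF was 10.2 and 7.73.

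**Figure D4:**
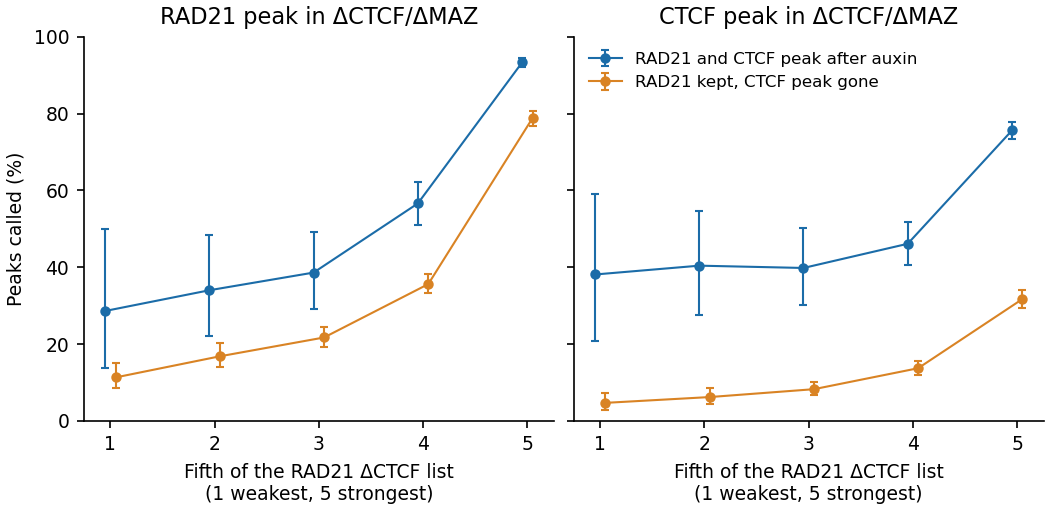
Share of peaks called in ΔCTCF/ΔMAZ (y axis, percent, with 95% Wilson intervals) by quintile of the RAD21 list of ΔCTCF in fold enrichment (x axis), for RAD21 (left) and CTCF (right). Residual-CTCF peaks (blue) lie above CTCF-lost retained peaks (orange) in every quintile, at 93.3% against 78.8% in the strongest for RAD21, and the intervals of the weakest 2 quintiles of RAD21 are wide, with 21 and 47 blue peaks.

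The strongest sites held both proteins throughout. The peak of highest RAD21 fold enrichment in ΔCTCF, at chr4:41050577-41051175, lay 2728 bp upstream of Aqp7, which encodes a channel for water and glycerol. Its RAD21 fold enrichment was 97.8, 69.1, 92.7 and 60 in the order WT, ΔCTCF, ΔMAZ, ΔCTCF/ΔMAZ, and its CTCF fold enrichment 29.9, 10.4, 20.7 and 14.1. It stood at percentile 100 in all 4 RAD21 lists. Fold enrichments of different libraries are not on a common scale and are set side by side only to show that no list lacked the site.

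The highest CTCF fold enrichment of ΔCTCF, 34.1, was in intergenic DNA 24413 bp from the TSS of Gpr19, an orphan receptor, where WT had 36.6, ΔMAZ 35.2 and ΔCTCF/ΔMAZ 27.0. RAD21 there was at 22.9, 32.6, 31.4 and 30.2. Both proteins were thus called there in all 4 conditions. A CTCF site 18225 bp from the TSS of Keap1, the sensor that has NRF2 degraded, had CTCF at 40.7, 33.3, 42.4 and 24.9 and RAD21 at 20.6, 34.7, 37.9 and 26.6.

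The strongest residual-CTCF peak with neither protein in ΔCTCF/ΔMAZ, at chrX:150477670-150478928, lay 18799 bp upstream of Tmem29. Its RAD21 fold enrichment was 22.6, 19.1 and 27.4 in the other 3 conditions, its CTCF fold enrichment 14.6, 7.41 and 31.9, and MAZ was called there in WT, at 12.5. In an intron of the noncoding gene Nkx2-2os, the second had RAD21 at 12.2, 15.7 and 13.5 and CTCF at 20.6, 9.63 and 29.1 in the same conditions. The other 3, near Mapk1ip1 and Gabrr1 and in an intron of Rxrg, a retinoid X receptor gene, had RAD21 fold enrichments from 11.9 to 12.2 in ΔCTCF. All 5 were thus called in the 6 other CTCF and RAD21 lists, and their CTCF fold enrichments in ΔCTCF, from 7.41 to 9.63, were near the class median of 8.67.

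MAZ was called at few residual-CTCF peaks. By the index the MAZ library of ΔCTCF had 0.377 of the depth of WT. A MAZ peak of ΔCTCF overlapped 56 of the residual-CTCF peaks (2.71%, 2.09 to 3.50) and one of WT 61 (2.95%, 2.3 to 3.77), while the shares over all RAD21 peaks of ΔCTCF were 11.9% and 11.1%. The share of 2.71% was 1.5% with a reciprocal overlap of 50% and 0.706% with −log10 q of at least 10. CTCF-lost retained peaks had 2.47% and 3.42%, with intervals that overlapped those of residual-CTCF peaks, and retained peaks without CTCF had 21.8% and 22.2%. At like RAD21 strength the odds ratio of a MAZ peak of ΔCTCF, residual-CTCF over CTCF-lost, was 1.29 (0.901 to 1.85), an interval that includes 1. The 56 peaks with MAZ lay within 1 kb of a TSS in 66.1% of cases (53.0 to 77.1), compared with 10.2% (8.93 to 11.6) of the rest. They had RAD21 in ΔCTCF/ΔMAZ at 87.5% (76.4 to 93.8), compared with 83.6% (81.9 to 85.2) without MAZ, a difference within the intervals. For CTCF the shares were 85.7% (74.3 to 92.6) and 68.2% (66.2 to 70.2).

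Just over 50% of residual-CTCF peaks lay between genes. By GENCODE M21, 242 (11.7%, 10.4 to 13.1) had their summit within 1 kb of a TSS, 42 (2.03%) in a UTR, 60 (2.90%) in another exon, 613 (29.6%, 27.7 to 31.6) in an intron and 1113 (53.8%, 51.6 to 55.9) between genes. CTCF-lost retained peaks had 11% (10.1 to 11.9) at a TSS, 34.6% (33.3 to 36.0) in an intron and 50.5% (49.1 to 51.9) between genes. Among the RAD21 peaks of WT with CTCF that were lost after auxin, 6.71% (6.24 to 7.20) lay at a TSS, 47.6% (46.7 to 48.6) in an intron and 41.1% (40.2 to 42.1) between genes. The share at a TSS was 24.6% over all RAD21 peaks of ΔCTCF and 26.7% in retained peaks without CTCF. Over all RAD21 peaks of ΔCTCF, 30.1% lay in an intron and 41.3% between genes. So residual-CTCF peaks were more often at a TSS and less often in introns than the lost sites. They were less often at a TSS than retained peaks without CTCF. Their share in introns was below that of CTCF-lost retained peaks and near that of all RAD21 peaks of ΔCTCF. Their share at a TSS did not differ beyond counting error from that of CTCF-lost retained peaks. The median distance to a TSS was 12400 bp.

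At promoters, the summits lay mostly upstream. Of the 242 peaks within 1 kb of a TSS, 183 had the summit upstream of it and 59 downstream, and 105 lay within 100 bp. The side was not counted in other classes, so it cannot be called particular to these peaks. RAD21 was called in ΔCTCF/ΔMAZ at 86.8% of the 242 (81.9 to 90.5) and CTCF at 79.3% (73.8 to 84.0), compared with 83.3% (81.5 to 85.0) and 67.3% (65.1 to 69.4) of the peaks farther away. The CTCF shares differed beyond counting error and the RAD21 shares did not. A CTCF motif match was less frequent at promoters, at 69.4% (63.4 to 74.9) compared with 81.4% (79.6 to 83.1).

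Of the sites at coding promoters, that of highest RAD21 fold enrichment in ΔCTCF was 162 bp upstream of Erlin2, a gene for a protein of the endoplasmic reticulum. It had RAD21 at 28.7, 34.8, 39.0 and 20.1 in the 4 conditions. Its CTCF fold enrichment was 59.3, 20.7, 70.6 and 21.3, and MAZ was called in WT at 4.91 and in ΔCTCF at 6.58. The second lay 38 bp upstream of Parp3, a DNA repair enzyme gene, with RAD21 at 47.3, 34.5, 55.5 and 28.3 and a MAZ peak only in ΔCTCF, at 5.12. The promoters of Tmem106c and Ephb1, an ephrin receptor gene, had RAD21 at 32.4 and 30.8 in ΔCTCF. The promoter of Pcdhgb7, just below that of Parp3 in this list, is described with its cluster.

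Within 50 bp of the summit, the motif was found more often at residual-CTCF peaks than at the other retained peaks. A match above the score that 1% of windows 1 kb beside CTCF summits exceed lay within 50 bp of the RAD21 summit at 80.0% (78.2 to 81.7) of residual-CTCF peaks and 68.7% (67.4 to 70.0) of CTCF-lost retained peaks, compared with 1.89% (1.17 to 3.05) of retained peaks without CTCF. Over all RAD21 peaks of ΔCTCF the share was 29.5%. Windows 1 kb beside residual-CTCF summits matched at 1.57%. At a score that 0.1% of windows beside CTCF summits exceed, the share was 28.5% at residual-CTCF peaks and 22.8% at CTCF-lost retained peaks. With a matrix learned with repeats kept, it was 33.9% at residual-CTCF peaks. Read at RAD21 summits of WT, the shares were 83.8% (82.2 to 85.3) at residual-CTCF sites and 68.2% (67.3 to 69.1) at CTCF sites whose RAD21 was lost. The match was also counted at CTCF summits of WT in groups of like CTCF strength. In the strongest quintile of the CTCF list of WT, a match was found at 88.2% (86.5 to 89.8) of sites with a residual-CTCF peak and 83.3% (82.0 to 84.6) of sites with RAD21 in WT and no CTCF peak after auxin. In quintile 4 from the weakest the shares were 87.0% (83.6 to 89.8) and 83.4% (82.2 to 84.5), and in quintile 3, with 93 residual-CTCF sites, 88.2% (80.1 to 93.3) and 78.8% (77.4 to 80.1). Quintiles 2 and 1 held 16 and 5 residual-CTCF sites, with 68.8% and 20% against 71.4% and 63.9%. Within the whole peak, 94 residual-CTCF peaks (4.54%, 3.73 to 5.53) held 2 or more matches, compared with 2.29% (1.91 to 2.74) of CTCF-lost peaks. Residual-CTCF peaks were also wider, with a median of 411 bp against 313 bp, and so offered more sequence to match.

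Among the matched bases, the largest difference in base share between residual-CTCF and CTCF-lost retained peaks was at position 14, in a CpG. Positions count from 1 at the 5′ end of the matrix, and positions 13 and 14 read CG in 59.2% (56.9 to 61.6) of matches at residual-CTCF peaks. The share was 48.2% (46.5 to 49.8) at CTCF-lost retained peaks and 31.8% (30.7 to 32.9) at CTCF sites whose RAD21 was lost. At position 14 the base was G in 67.3%, 56.9% and 44.5% of matches and A in 31.8%, 42.3% and 53.8%, in the same order. Of the sites printed above, Rxrg and Eif1 had A at that base. The difference was also found within groups of like CTCF strength in WT. In the strongest quintile of the CTCF list of WT, CG stood there in 59.0% (56.3 to 61.6) of matches at residual-CTCF sites and 46.6% (44.7 to 48.5) at sites with RAD21 in WT and no CTCF peak after auxin. In quintile 4 from the weakest the shares were 57.6% (52.7 to 62.4) and 39.6% (37.9 to 41.3), and in quintile 3 they were 51.2% (40.6 to 61.7) and 35.9% (34.2 to 37.6).

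Around the summit, residual-CTCF peaks had a median GC content of 54.5% and a mean of 3.58 CpGs within 50 bp to each side, compared with 52.5% and 2.70 in CTCF-lost retained peaks. The mean was near that of all RAD21 peaks of ΔCTCF, which had 53.5% and 3.59. Retained peaks without CTCF had 52.5% and 3.61. The summit fell in a repeat, by the soft-masked letters of the genome, at 9.66% (8.46 to 11) of residual-CTCF peaks. The share was 13.5% (12.6 to 14.5) in CTCF-lost retained peaks and 21.4% (20.6 to 22.1) at CTCF sites whose RAD21 was lost. The letters GGGAGGG, a G-rich core of MAZ sites searched on both strands, were in 2.46% (1.88 to 3.22) of the windows, compared with 2.91% (2.48 to 3.42) in CTCF-lost peaks, 7.57% (5.98 to 9.56) in retained peaks without CTCF and 5.83% of all RAD21 peaks of ΔCTCF.

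Cohesin lay on the same side of the motif in every condition. At the 1656 residual-CTCF peaks with a match, the RAD21 summit of ΔCTCF lay a median 18.5 bp past the motif centre in its reading direction (quartiles 10.5 and 25.5), and 87.2% lay past it. The medians were 19.5 bp in WT, 19.5 bp in ΔMAZ and 20.5 bp in ΔCTCF/ΔMAZ. The medians of the CTCF summits lay on the other side, at -9.50 bp in WT, -7.50 bp in ΔCTCF, -12.5 bp in ΔMAZ and -12.5 bp in ΔCTCF/ΔMAZ. Their spread crossed the motif, with 29.6% of CTCF summits past it in WT, 40.5% in ΔCTCF (quartiles -25.5 and 12.5 bp), 24.8% in ΔMAZ and 31.5% in ΔCTCF/ΔMAZ. Measured at the same site, the RAD21 summit was past the CTCF summit in 88.2% of peaks in WT, by a median of 28.0 bp, and in 76.6% in ΔCTCF, by 24.0 bp. In CTCF-lost retained peaks the RAD21 summit of ΔCTCF was a median 17.5 bp past the motif and past it in 79.5%. The search within 50 bp of the RAD21 summit of ΔCTCF limits that offset to 42.5 bp, and widening it to 100 bp gave a median of 19.5 bp.

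**Figure D5:**
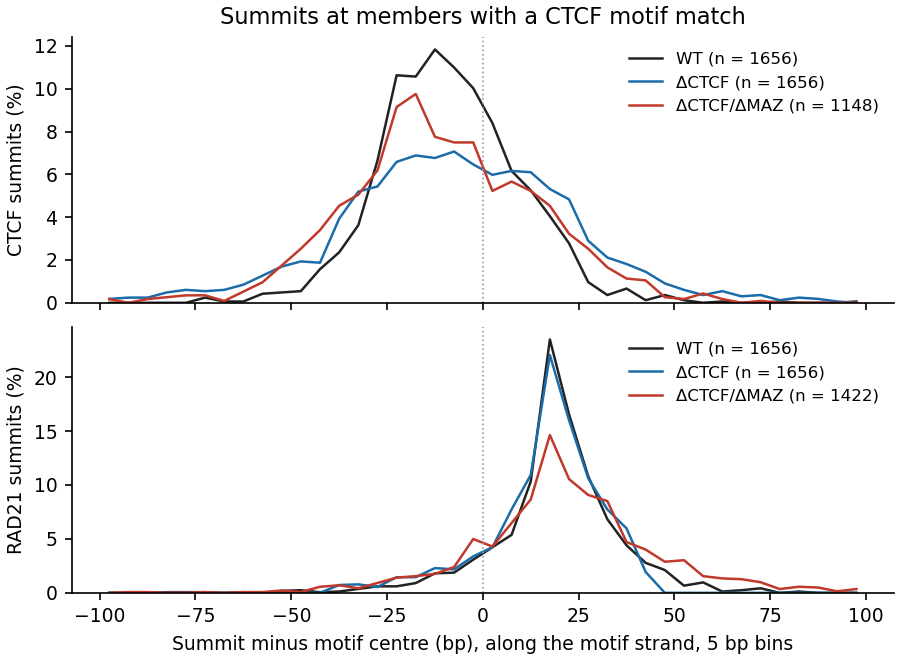
Position of CTCF (top) and RAD21 (bottom) summits relative to the motif centre (x axis, bp along the motif strand, 5 bp bins) at the 1656 residual-CTCF peaks with a motif match, as a share of summits (y axis, percent) in WT (black), ΔCTCF (blue) and ΔCTCF/ΔMAZ (red). RAD21 summits gather past the motif, at a median of 18.5 bp in ΔCTCF, the medians of CTCF summits lie before it, and the blue RAD21 curve ends at 42.5 bp because the motif was searched from those summits.

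The median distance from one residual-CTCF peak to the next was 366000 bp, and 210 (10.1%) lay within 10 kb of another, compared with 51600 bp and 32.1% for the 17512 RAD21 peaks of WT with CTCF. The sets differ in number, which alone widens the spacing, and no comparison at equal number was made. Where neighbours both had a match and stood over 50 kb apart, 28.4% (25.9 to 31.2) of 1118 pairs had motifs that point at each other, 49.0% pointed the same way and 22.5% (20.2 to 25.1) pointed apart, where the RAD21 peaks of WT with CTCF had 34.1% (32.8 to 35.5), 45% and 20.9%. Pairs of residual-CTCF peaks closer than that pointed at each other in 11.7% (7.95 to 17.0) and apart in 37.8% (31.3 to 44.7) of 196 pairs, where that set had 15.9% (14.9 to 17.0) and 31.3% (30 to 32.7). Neighbours in the smaller set skip other CTCF sites, so these shares are set side by side as a description. Chromosome X held 14 residual-CTCF peaks for 391 RAD21 peaks of WT, or 3.58%, compared with 7.04% to 12.6% on the numbered chromosomes.

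Of 10483 protein-coding genes with a RAD21 peak of WT in the gene or within 10 kb of it, 1612 (15.4%) had a residual-CTCF peak there. Only 33 genes had 3 or more. The most, 11, lay in Gm20388, a predicted locus of 4430 kb that spans many other genes and held 86 RAD21 peaks of WT, and 5 lay in Camta1, a 945 kb gene for a calmodulin-binding transcription activator. The next 7 genes by count, Gm37013, Gm37388, Gm42416, Pcdhga1, Pcdhga2, Pcdhga3 and Pcdhgb1, shared the same 5 peaks of the gamma-protocadherin cluster, and Dlgap1, a gene for a synaptic scaffold protein, had 4, tied with Fgfr2, a fibroblast growth factor receptor gene, and 7 further gamma-protocadherin genes. The annotated span of Fgfr2 used here was 2960 kb and held 36 RAD21 peaks of WT. Long genes offer more room for a peak, so these counts rank size as well.

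The gamma-protocadherins are cell-surface proteins whose promoters, each with its own CTCF site, are chosen by CTCF and cohesin in neurons. Of 28 RAD21 peaks of WT in or near the clustered protocadherins, 5 positions held residual-CTCF peaks (10.2% over all RAD21 peaks of WT), at the promoters of Pcdhga3, Pcdhgb4, Pcdhgb5, Pcdhgb6 and Pcdhgb7. The Pcdhgb7 promoter was the strongest. In the 4 conditions its CTCF fold enrichment was 36.6, 34.0, 53.0 and 31.0, and its RAD21 fold enrichment 22.8, 34.1, 32.5 and 25.7. At Pcdhgb6 RAD21 was at 23.0, 22.2, 24.3 and 13.3 and CTCF at 32.6, 18.5, 37.4 and 9.42. In ΔCTCF/ΔMAZ, RAD21 was called at 4 of the 5 promoters and CTCF at 3, with neither at Pcdhga3. These promoters are near-identical copies in part, so reads may be shared among them.

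The Hox clusters, whose genes set position along the body axis and which CTCF divides into domains, held 7 residual-CTCF peaks for 18 RAD21 peaks of WT, where 10.2% of all RAD21 peaks of WT lay in one. All 7 had both RAD21 and CTCF in ΔCTCF/ΔMAZ, compared with 63.1% of all residual-CTCF peaks. In HoxA, the site 65 bp upstream of Hoxa5, at chr6:52204410-52204861, had CTCF at 35.7, 12.3, 23.4 and 14.6 and RAD21 at 27.0, 18.3, 29.9 and 16.5 in the 4 conditions. The site 3060 bp upstream of Hoxa7, at chr6:52221459-52222035, had CTCF at 41.7, 9.62, 54.0 and 9.43 and RAD21 at 38.8, 18.3, 36.7 and 14.9. In HoxC, the peak 200 bp upstream of Hoxc10 had RAD21 at 39.1, 17.9, 39.8 and 17.4, and that 2984 bp upstream of Hoxc8 at 24.1, 25.1, 23.7 and 19.7. In HoxD, the peaks near Hoxd8 and at Hoxd3os1 had RAD21 at 16.7 and 9.15 in ΔCTCF. The seventh, in Hoxc5, was weak, with RAD21 at 6.39 in WT and 5.10 in ΔCTCF, no call in ΔMAZ and 5.25 in ΔCTCF/ΔMAZ, and was called for MAZ at 4.77 in WT and 4.54 in ΔCTCF.

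The other lists held from 0 to 4 residual-CTCF peaks each, counts too small to set against the 10.2% of all RAD21 peaks of WT. Of 47 RAD21 peaks of WT near 45 imprinted genes, 3 positions were residual-CTCF peaks, near Kcnk9, Trappc9 and Usp29. Near 25 pluripotency factors, with 27 RAD21 peaks of WT, there were 3, near Sall4 and at 2 sites by Sox2, a core factor of the stem cell state. The Sox2 site 2502 bp upstream of its TSS had RAD21 at 28.9, 13.9, 26.1 and 13.7 in the 4 conditions, and CTCF at 14.8, 8.11 and 17.8 with no call in ΔCTCF/ΔMAZ. The other, in the noncoding gene Sox2ot, had neither protein called in ΔCTCF/ΔMAZ. Among 28 loci known for boundaries or long-range enhancers, with 27 RAD21 peaks of WT, there were 4 such peaks, the 2 by Sox2 and those near Epha4, an ephrin receptor gene, and Shh, a morphogen gene. The peak near Shh had RAD21 at 43.9, 17.4, 45.9 and 14.6. None lay near the 12 zinc finger genes of the study, where WT had 10 RAD21 peaks.

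Genes of cohesin and CTCF had 4 residual-CTCF peaks, all with RAD21 and CTCF in ΔCTCF/ΔMAZ. The share with both was 63.1% of all residual-CTCF peaks, and 4 peaks are too few to set apart from it. The promoter of Pds5b, which encodes a cohesin regulator, had RAD21 at 31.9, 21.4, 33.3 and 19.2 in the 4 conditions. A site near Esco1, which encodes a cohesin acetyltransferase, lay at the promoter of Snrpd1 and had RAD21 at 5.37, 3.88, 7.51 and 6.21. The other 2 were in exons of Ctcf itself. At chr8:105663666-105664554, CTCF was at 13.3, 17.0, 17.3 and 15.7, and RAD21 at 8.43, 9.05, 8.66 and 6.59. Whether reads from the engineered constructs of these cells add to the peaks in Ctcf exons was not tested.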

How the data were processed

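ChIP-seq of CTCF, MAZ and RAD21 was analysed from 12 deposited narrow peak lists, 1 per antibody and condition, grouped by sample title. The authors mapped reads to mm10 with Bowtie 2, removed duplicates with SAMtools and called peaks with MACS for each library; use of an input was not given in the sources used here. The fold enrichment that the authors deposited is a ratio of pileup to background, each with a pseudocount of 1. Each deposited peak also has a −log10 p and a −log10 q value, set within its own library, and the deposited score and summit offset were read as given, the score for no result. Spike-in scaling does not enter these lists. The lists hold no read totals, so pileup and background were solved from fold enrichment and −log10 p. The lowest background over the smallest peak width served as the index of depth. Relative to WT, it was 0.632 to 1.15 in CTCF and 0.931 to 2.18 in RAD21 libraries.

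Peaks were matched by at least 1 bp of overlap, checked against bedtools 2.31.1 with 0 peaks that differed, in Python 3.11.15 with numpy 2.4.6, pandas 2.3.3 and scipy 1.17.1. Percentiles are ranks by fold enrichment within a list, of the strongest overlapping peak. Shares carry Wilson 95% intervals. Gene positions came from the protein-coding and long noncoding genes of GENCODE M21, with the summit as the point. The CTCF matrix was learned from 13312 windows, 50 bp to each side, at ΔMAZ summits; windows with repeat letters were left out of the learning, a choice made after a first matrix followed a repeat. Sequence came from RefSeq GRCm38.p6, whose coordinates are those of mm10. The functions were tested on simulated data.

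The regions and gene lists were chosen with earlier results of these data known. Named were the 5 strongest peaks in each of the RAD21 and CTCF lists of ΔCTCF, the 5 strongest with neither protein in ΔCTCF/ΔMAZ, the 5 strongest within 1 kb of a coding TSS, the 10 genes with most peaks and the peaks near listed genes; others named were chosen after their values were seen. The result for 1 peak that this rule names is not reported here. Overlap, threshold, list length, ranking, promoter and motif settings were varied.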

Additional observations from a re-analysis of the deposited data

How the results depend on the processing

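No paired analysis was possible because there was a single list for every antibody and condition, which also left none to omit. Of 85 recomputed values, 51 stayed within the interval of the reported value (counts within 1.5 times), 34 moved and 0 reversed. By the index of depth, the CTCF library of ΔCTCF was at 0.632 and the RAD21 library of ΔCTCF/ΔMAZ at 0.931 of WT, and the part of depth in the calls was not tested. Except where fewer peaks or a changed limit sets it by construction, the cause of each move was not tested.

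With −log10 q of at least 10, 850 peaks were left; RAD21 in ΔMAZ was at 100%, CTCF in ΔCTCF/ΔMAZ at 73.1%, the odds ratio at 2.48, MAZ at 0.706%, the motif at 81.8%, and the percentiles at 93.6 in CTCF and 89.4 in RAD21 of WT. With at least 5, MAZ was at 1.85%. With a reciprocal overlap of 50%, RAD21 and CTCF in ΔCTCF/ΔMAZ were at 78.0% and 51.3%, in ΔMAZ at 99.1% and 98.4%, MAZ at 1.5%, TSS at 10.3% and the percentiles at 90.2 and 80.7. With lists of equal length, RAD21 and CTCF in ΔCTCF/ΔMAZ were at 91.8% and 70.9%, in ΔMAZ at 95.3% and 51.4%, the odds ratio at 1.06, TSS at 9.81%, the motif at 82.6% and the percentiles at 96.4 and 90.2. Grouping by strength in WT gave odds ratios of 6.52 by RAD21 and, chosen after seeing the data, 5.37 by CTCF. Within 2.5 kb, 18.4% lay at a TSS. The motif share was 28.5% at the 0.1% level and 89.4% within 100 bp. Chosen after seeing the data, a matrix that kept repeats gave 33.9% and an offset of 15.5 bp, and a search of 100 bp an offset of 19.5 bp.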

Other observations

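A pair of residual-CTCF peaks overlapped a MAZ peak of the untreated Maz knockout, where the MAZ list held 33 peaks in all. The first, at chr9:21544254-21546447, lay 962 bp upstream of Carm1, which encodes an arginine methyltransferase. Its CTCF fold enrichment was 18.1, 23.5, 16 and 15.7 in the order WT, ΔCTCF, ΔMAZ, ΔCTCF/ΔMAZ, and its RAD21 fold enrichment 7.52, 15.2, 7.65 and 11.9. MAZ was called there in all 4 conditions, at 12.8, 11.4, 6.02 and 8.57. The second, at chrX:106186630-106187257, lay 216 bp upstream of Pgk1, which encodes a glycolytic enzyme, with CTCF at 12, 20, 32.5 and 15.7, RAD21 at 6.09, 10.2, 5.40 and 22.9, and MAZ at 12.9, 7.74 and 6.78 with no call in ΔCTCF/ΔMAZ. Neither held a CTCF motif match. Whether reads from the engineered constructs of these cells add to the Pgk1 peak was not tested. These sites were chosen after their values were seen.

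Of 1656 motif matches at residual-CTCF peaks, 6 equalled the most frequent bases of the matrix at every position, compared with 3 of 3421 at CTCF-lost retained peaks and 3 of 7127 at CTCF sites whose RAD21 was lost.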
